A study of Mus musculus with 6 samples.

Results

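Described here are the oxysterol receptor Gpr183 and 4 enzymes that make or clear its ligand or another oxysterol, Ch25h, Cyp7b1, Hsd3b7 and Cyp27a1. They are 5 of the 55401 genes listed, found by matching mouse Ensembl identifiers to these symbols. They were selected on measured values: the contrast of LPS with vehicle was known when they were picked, and Gpr183 had the most negative log2 fold change among called genes with a mean of at least 5 CPM and groups that did not overlap (-3.26, followed by Dmpk at -3.04 and Gm12435 at -2.75). Their changes with LPS are therefore given as a description and support nothing. Of the 5 genes, 4 had a value above 0 in any library and 3 passed the filter on low counts.

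The data are RNA sequencing of poly(A)-selected transcripts from BV2, an immortalised mouse microglial cell line, with 3 libraries of cells given vehicle (Vehicle) and 3 of cells given lipopolysaccharide (LPS), a glycolipid from the wall of Gram-negative bacteria that macrophages sense through Tlr4. The labels give no dose, no time of treatment and no composition of the vehicle, and name no genetic change in either group. Separate cultures are not stated for the libraries of either group. The p-values below therefore measure only how these libraries vary, and that variation may be technical. An immortalised line grown without other brain cells is a limited model of microglia in tissue.

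Gpr183, also called EBI2, is a receptor coupled to Gi proteins that guides B cells, T cells, dendritic cells and macrophages along gradients of oxysterols, which are oxidised forms of cholesterol. Its strongest known ligand carries hydroxyl groups in the 7-alpha and 25 positions of cholesterol: Ch25h (cholesterol 25-hydroxylase) adds the one and Cyp7b1 (oxysterol 7-alpha-hydroxylase) the other. Hsd3b7 oxidises the 3-beta-hydroxyl group of such 7-alpha-hydroxylated sterols and so removes the ligand, and Cyp27a1 makes 27-hydroxycholesterol, a separate oxysterol that Cyp7b1 also accepts. In macrophages, Ch25h is known as a gene induced by LPS and interferon.

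The sequences just upstream of the start sites are shown for the receptor, the 25-hydroxylase and the clearing enzyme, 1 for each role (receptor, ligand synthesis, ligand clearance). A RefSeq promoter entry (mouse GRCm38.p6) was found for 4 of the 5 genes, and the entry was not found for Cyp7b1. Each line gives the 250 bases before the annotated start, 5′ to 3′ on the strand of the gene. Capitals mark a match to 1 of 4 motifs searched on both strands: the kappa-B motif, the core of the interferon-stimulated response element, the cyclic AMP response element TGACGTCA and the AP-1 motif TGANTCA. No pair of these motifs overlapped in the windows shown.
Gpr183 promoter: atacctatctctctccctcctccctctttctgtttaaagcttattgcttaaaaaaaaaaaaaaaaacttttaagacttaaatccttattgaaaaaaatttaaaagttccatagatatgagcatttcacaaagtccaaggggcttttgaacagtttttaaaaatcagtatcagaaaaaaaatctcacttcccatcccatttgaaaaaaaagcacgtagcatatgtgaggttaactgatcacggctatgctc
Ch25h promoter: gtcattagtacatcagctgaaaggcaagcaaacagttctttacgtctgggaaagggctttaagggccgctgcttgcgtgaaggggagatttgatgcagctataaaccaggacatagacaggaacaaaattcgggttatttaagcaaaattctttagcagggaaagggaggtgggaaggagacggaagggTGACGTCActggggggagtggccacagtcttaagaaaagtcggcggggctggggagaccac
Hsd3b7 promoter: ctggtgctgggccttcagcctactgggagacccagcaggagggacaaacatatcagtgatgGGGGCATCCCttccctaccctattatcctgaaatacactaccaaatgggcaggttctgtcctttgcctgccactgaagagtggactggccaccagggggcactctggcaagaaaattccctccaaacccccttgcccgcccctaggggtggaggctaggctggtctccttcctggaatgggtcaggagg
The Gpr183 window (chr14:121965194-121965443, minus strand) was 32% GC and held none of the 4 motifs. The Ch25h window (chr19:34475149-34475398, minus strand) was 50.4% GC and held a cyclic AMP response element beginning at base -61 from the start. The Hsd3b7 window (chr7:127800359-127800608, plus strand) was 58.0% GC and held a kappa-B motif beginning at base -189. The window of Cyp27a1 (chr1:74713285-74713534, plus strand) was 54.0% GC and held none of the 4. Over all 32851 promoters of this length, 1.55% held the cyclic AMP response element, 7.25% the kappa-B motif, 6.75% the AP-1 motif and 2.98% the interferon-stimulated core. These motifs were chosen after the sequences were seen, and a match is a match of letters only, not evidence of binding.

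The libraries totalled 45969690 to 59023474 estimated counts, with 18984 to 20615 genes above 0. Levels are given as CPM (counts scaled to the library total) after TMM, edgeR's correction for differences in composition between libraries. Of 10 markers of microglia and macrophages, all were tested, and edgeR called 1 higher with LPS and 2 lower, against 12.7% and 10.9% of all genes tested. Their summed level ran from 1773 to 1997 CPM in Vehicle and from 1430 to 1886 CPM with LPS, and Cd68, a lysosomal protein of macrophages, stood at 959 ± 138 CPM in Vehicle (SD, n = 3). Csf1r, the receptor that microglia need for survival, fell from 232 ± 5.16 to 87 ± 0.75 CPM (edgeR adjusted p = 1.44e-05), and Adgre1, which encodes F4/80, rose from 135 ± 0.93 to 223 ± 36.8 CPM (edgeR adjusted p = 0.00399). The integrin gene Itgam stood at 156 to 222 CPM in Vehicle, at 42.9 CPM in LPS 1 and at 186 and 249 CPM in LPS 2 and 3, so LPS 1 lay apart for this marker. Markers that define microglia in tissue were low in Vehicle and with LPS: Tmem119 stood at 2.01 ± 0.16 and 2.07 ± 0.49 CPM and Cx3cr1 at 2.33 ± 0.20 and 1.03 ± 0.58 CPM. P2ry12 measured 0.842 ± 0.131 CPM in Vehicle and 0.12 ± 0.123 CPM with LPS. It passed the filter only through the Vehicle libraries, where it is high, so its place among the 2 called lower supports nothing. The call was lost with limma voom, with edgeR as before version 4 (adjusted p = 0.105) and without Vehicle 2, Vehicle 3, LPS 1 or LPS 2. Under the stricter filter and division by the count step, both given below, P2ry12 could not be tested. Of 12 markers of other brain and blood cells, 7 could be tested and edgeR called 0 (0 also at an unadjusted p under 0.05). Their summed level ran from 10.9 to 13.1 CPM in Vehicle and from 4.69 to 15.1 CPM with LPS. Albumin (Alb) and 9 other genes of liver cells, listed after the data had been seen, varied between libraries: they summed to 222, 66.1 and 84.8 CPM in Vehicle 1, 2 and 3 and to 0.901, 29.5 and 91.4 CPM in LPS 1, 2 and 3.

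The receptor was well expressed in Vehicle and low with LPS. Gpr183 (ENSMUSG00000051212) measured 28.6, 27.0 and 29.4 CPM in Vehicle 1, 2 and 3 and 2.58, 1.99 and 4.37 CPM in LPS 1, 2 and 3. Every LPS library lay far below every Vehicle library, LPS 3 was the highest of its group, and the groups did not overlap. The means were 28.3 ± 1.22 CPM in Vehicle and 2.98 ± 1.24 CPM with LPS (SD, n = 3), which is 9.56-fold lower, with a log2 fold change of -3.26 ± 0.23 (SE, edgeR). These values rest on 1314 to 1728 estimated counts per Vehicle library and 105 to 213 per LPS library. In bulk RNA, fewer cells that express a gene and less of its RNA per cell cannot be told apart.

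The 25-hydroxylase that begins ligand synthesis was not detected in either group. Ch25h (ENSMUSG00000050370) was listed at 0 in all 6 libraries. A count of 0 allows up to 3 steps of the count scale per library, which is 11.1 to 11.5 counts or 0.19 to 0.238 CPM and covers counting error only. A step is the spacing of 3.70 to 3.83 counts at which the low values of a library pile up, so a count cannot be read as a single fragment. Nothing could be tested for Ch25h, and no fold is given.

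Ch25h has 1 exon, so other genes were looked at for a general loss. Of 19 broadly expressed genes, 19 were above 0 in every library, with a lowest count of 1432. Among 1292 protein-coding genes of 1 exon, 307 were above 0 in every library. The matching share for genes of more exons was not computed. This count therefore cannot show whether 1-exon genes were lost more often. The 1-exon transcription factor genes Jun, Cebpb and Ier2, chosen after their values were seen, were all well detected. Jun stood at 77.2 ± 5.87 CPM in Vehicle and 86.8 ± 6.38 CPM with LPS, and Cebpb at 93.6 ± 8.18 and 267 ± 30.9 CPM (SD, n = 3). In all, 6138 of 21897 protein-coding genes (28.0%) were at 0 in all libraries. The antisense gene Gm26902, whose exons overlap those of Ch25h, was also at 0 in all 6 libraries, and how the authors treated reads from overlapping genes is not given in the sources used here.

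The 7-alpha-hydroxylase was near the limit of detection. Cyp7b1 (ENSMUSG00000039519) measured 0.546, 0.164 and 0.169 CPM in Vehicle 1, 2 and 3, on 33, 8 and 8 counts. It was at 0 in LPS 1 and LPS 2 and measured 0.328 CPM in LPS 3, on 16 counts. Only Vehicle 1 and LPS 3 exceeded the floor of 3 steps, the groups overlapped, the gene did not pass the filter and no fold is given.

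The libraries with the most Cyp7b1 were also those with the most RNA of liver genes. All 10 liver genes were highest in Vehicle 1 and lowest in LPS 1, where 8 were at 0. Alb measured 119, 32.4 and 46.2 CPM in Vehicle 1, 2 and 3, was at 0 in LPS 1 and measured 12.6 and 49.1 CPM in LPS 2 and 3. Cyp7b1 was likewise highest in Vehicle 1 and at 0 in LPS 1. None of the 10 liver genes was called by edgeR between the groups, 0 had an unadjusted p under 0.05, and their median log2 fold change was -1.62. The part of liver RNA in the Cyp7b1 values was not tested.

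**Figure D1:**
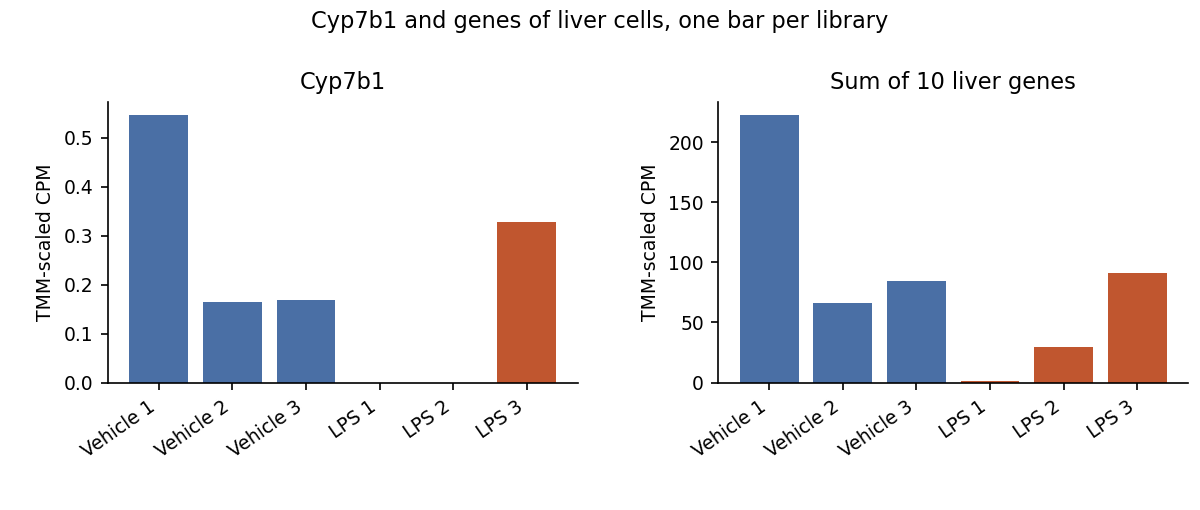
Level of Cyp7b1 (left) and summed level of 10 liver genes (right) in each library, in TMM-scaled CPM on linear axes that start at 0, with 1 bar per library (blue Vehicle, orange LPS). Both are highest in Vehicle 1 (0.546 and 222 CPM), and in LPS 1 they stand at 0 and 0.901 CPM.

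Cyp27a1, the mitochondrial sterol 27-hydroxylase, was well expressed in both groups. Cyp27a1 (ENSMUSG00000026170) measured 33.6, 28.6 and 33.3 CPM in Vehicle 1, 2 and 3 and 39.5, 39.3 and 35.9 CPM in LPS 1, 2 and 3. All LPS libraries lay above all Vehicle libraries, by a small margin. The means were 31.8 ± 2.81 and 38.2 ± 2.0 CPM (SD, n = 3) and the log2 fold change was 0.26 ± 0.11 (SE, edgeR), which was not called in the main comparison or under any of 16 alternatives.

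The ligand-clearing enzyme was also well detected in both groups. Hsd3b7 (ENSMUSG00000042289) measured 32.2, 25.5 and 25.4 CPM in Vehicle 1, 2 and 3 and 36.5, 41.8 and 26.6 CPM in LPS 1, 2 and 3. LPS 3 lay within the Vehicle range and below Vehicle 1, so the groups overlapped. The means were 27.7 ± 3.86 and 35 ± 7.74 CPM (SD, n = 3) and the log2 fold change was 0.33 ± 0.18 (SE, edgeR), which was not called. It was called only without LPS 3, at 0.49 ± 0.14. The exons of Hsd3b7 overlap those of the antisense transcript 9430064I24Rik, at 2.69 to 3.70 CPM over the 6 libraries, and of the same-strand readthrough gene Gm49388, at 0. The kit is not stated to keep the strand, so reads of Hsd3b7 and its antisense partner cannot be told apart.

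**Figure D2:**
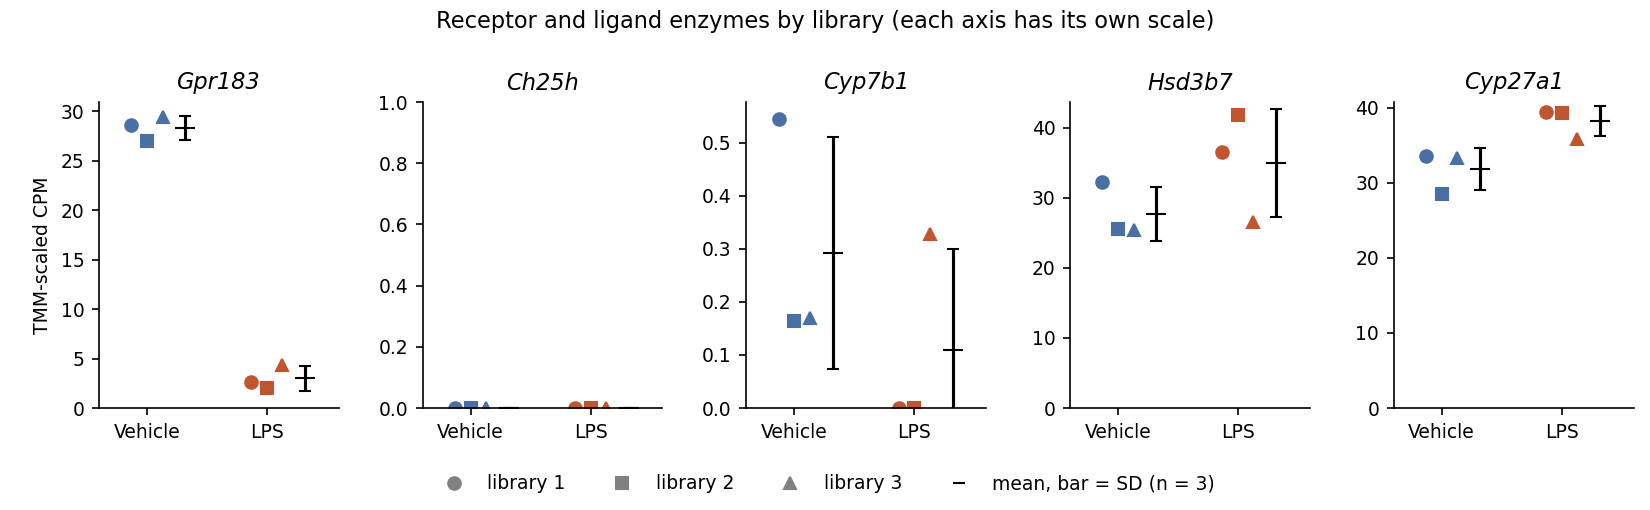
Level of the receptor and the 4 enzymes in each library, in TMM-scaled CPM on linear axes that start at 0 and differ in scale. Blue is Vehicle and orange is LPS. Marker shape gives the library number, which is not stated to pair libraries, and black bars give mean ± SD (n = 3). Gpr183 is low in every LPS library, Ch25h is at 0 throughout, and the Hsd3b7 groups overlap.

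In counts, edgeR called 1 of the 3 tested genes lower with LPS and 0 higher. Over all 16371 tested genes 10.9% were called lower (1782), 12.7% higher (2082) and 23.6% in either direction (3864). With total counts as the only scaling the split over all genes was 1650 higher and 2258 lower. Of the 3 tested genes, 2 had groups that did not overlap, Gpr183 and Cyp27a1, against 40.8% of all tested genes (6685). Since the genes were chosen on this contrast, nothing is read from these shares. The 0 higher calls were also found with DESeq2 and limma voom, and 1 of the 3 genes, Cyp27a1, was higher at an unadjusted edgeR p under 0.05.

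Levels of different genes were compared per kilobase of the longest annotated transcript. In Vehicle, Cyp27a1 was highest at 16.8 ± 1.48 CPM per kilobase, followed by Hsd3b7 at 12.1 ± 1.69, Gpr183 at 10.4 ± 0.45, Cyp7b1 at 0.135 ± 0.101 and Ch25h at 0 (SD, n = 3). Hsd3b7 exceeded Gpr183 by about its own SD. With LPS the level of Cyp27a1 was 20.2 ± 1.06 CPM per kilobase, that of Hsd3b7 15.3 ± 3.39, that of Gpr183 1.09 ± 0.46 and that of Cyp7b1 0.051 ± 0.088. Per kilobase of coding sequence the order of the means of the 3 expressed genes in Vehicle turned round. Gpr183 stood at 26.4 ± 1.14, Hsd3b7 at 25 ± 3.49 and Cyp27a1 at 19.9 ± 1.76 CPM per kilobase. Here Gpr183 exceeded Hsd3b7 by less than the SD of Hsd3b7. On that scale LPS levels were 2.78 ± 1.16 for Gpr183, 31.6 ± 6.99 for Hsd3b7 and 23.9 ± 1.25 for Cyp27a1. On both length scales Gpr183 was the lowest of these 3 genes with LPS.

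The gene next to the receptor was above the floor of 3 steps only with LPS. Gpr183 and Gpr18, a receptor proposed to respond to N-arachidonyl glycine, both lie, in the GENCODE annotation, within an intron of Ubac2 on the opposite strand, 36769 bases apart and on the same strand as each other. Gpr18 measured 0.066, 0 and 0.084 CPM in Vehicle 1, 2 and 3 (4, 0 and 4 counts) and 1.12, 1.29 and 1.77 CPM in LPS 1, 2 and 3 (56, 68 and 86 counts). The groups did not overlap, and all Vehicle values were under the floor. Gpr18 passed the filter on low counts only through the LPS libraries, where it is high, so its call by edgeR supports nothing and no fold is given. Gpr18 was low even with LPS.

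The host gene did not pass the test. Ubac2, which encodes a membrane protein of the endoplasmic reticulum, stood at 41.9 ± 4.66 CPM in Vehicle and 46.6 ± 1.94 CPM with LPS (SD, n = 3), with a log2 fold change of 0.15 ± 0.11 (SE; edgeR adjusted p = 0.383). Its exons do not overlap those of Gpr183. Reads from the introns of Ubac2 could still reach Gpr183 where the strand is not kept, and this was not tested. Lipa, which encodes lysosomal acid lipase and lies 17153 bases from Ch25h on the same strand, fell from 149 ± 7.30 to 99.2 ± 3.46 CPM, with a log2 fold change of -0.59 ± 0.08 (SE; edgeR adjusted p = 0.00164).

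**Figure D3:**
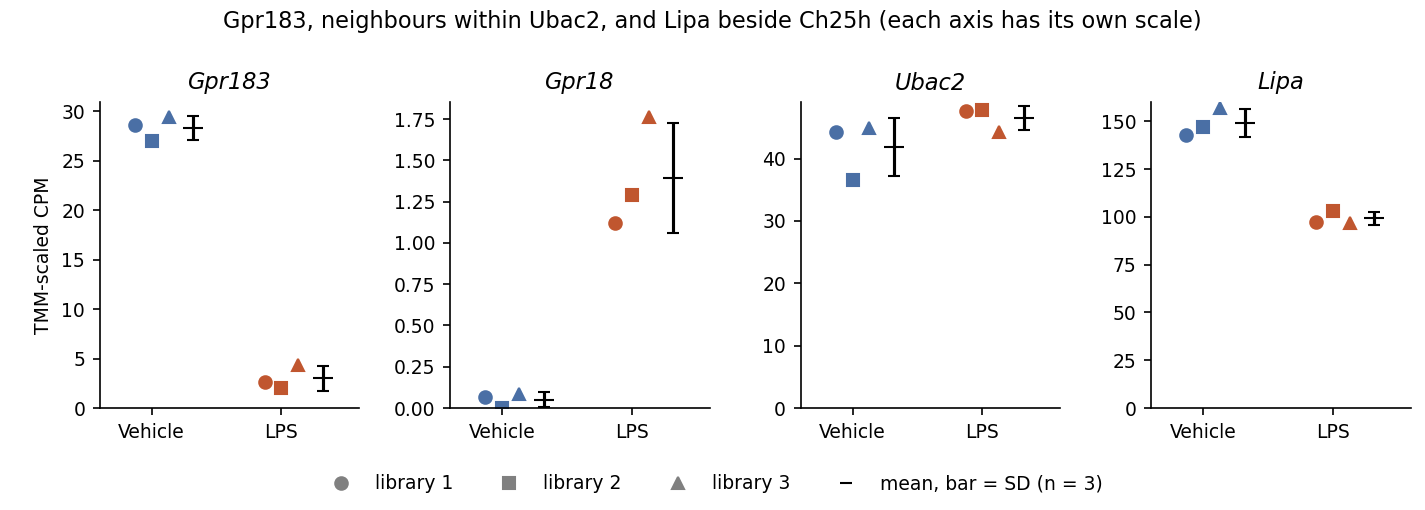
Level of Gpr183, its neighbours Gpr18 and Ubac2, and Lipa, the neighbour of Ch25h, in each library, in TMM-scaled CPM on linear axes that start at 0 and differ in scale (blue Vehicle, orange LPS; marker shape gives the library number; black bars give mean ± SD, n = 3). Gpr183 and Gpr18 separate the groups in opposite directions, while the Ubac2 groups lie close together.

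Among other enzymes of oxysterol and bile acid synthesis, Cyp11a1 rose and Scp2 fell. Of 18 listed, 14 could be tested, and the other 12 were not called, against 23.6% called over all genes. There were 4 whose groups did not overlap, against 40.8% over all genes. Their median log2 fold change was -0.38, against -0.02 over all tested genes. The most negative values were those of Akr1c6, Slc27a5, Slc27a2, Baat and Cyp8b1, at -3.12 to -0.90 with SE of 0.98 to 1.34. Each of these was low and at 0 in LPS 1, and edgeR called none of them. Cyp46a1, also low and at 0 in LPS 1, had a log2 fold change of 0.49 ± 0.98 (SE). The median is therefore not read as a shift of the list. Cyp11a1, which cleaves the side chain of cholesterol to form pregnenolone, rose from 5.43 ± 1.41 to 12 ± 1.82 CPM (SD, n = 3; log2 fold change 1.13 ± 0.22 SE, edgeR adjusted p = 0.00797). Scp2, a sterol carrier and peroxisomal thiolase of bile acid synthesis and the most abundant gene of the list, fell from 94.2 ± 4.77 to 71.4 ± 1.20 CPM (-0.40 ± 0.09, edgeR adjusted p = 0.0110). Cyp7a1, the rate-limiting enzyme of bile acid synthesis in liver, was at 0 in all libraries.

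Several enzymes of this list followed the liver genes across libraries. Akr1c6, Slc27a2 and Slc27a5, chosen after their values were seen, were each highest in Vehicle 1 (2.2, 2.63 and 1.49 CPM) and at 0 in LPS 1. In LPS 1 and LPS 2 each was under the floor of 3 steps. Their log2 fold changes were -3.12 ± 1.34, -1.79 ± 0.98 and -2.17 ± 1.0 (SE), and edgeR called none of them. Leaving out LPS 3 brought Slc27a2 and Slc27a5 past the threshold. In that setting they passed the filter only through the Vehicle libraries, where they are high, so those calls support nothing. Slc27a5 activates bile acids for conjugation in liver, and Slc27a2 activates very long-chain fatty acids. Without LPS 3 the list held 2 genes higher and 4 lower, and the 4 include Slc27a2 and Slc27a5. The part of liver RNA in the median of the list was not tested.

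Sensors and carriers of oxysterols moved in both directions. All 22 listed genes were tested, and 5 rose, 4 fell and 13 were not called, against 12.7% higher and 10.9% lower over all genes. There were 15 whose groups did not overlap, against 40.8% over all genes, and the median log2 fold change was 0.24, against -0.02. With total counts as the only scaling 3 rose, and 3 rose also without Vehicle 2, LPS 1 or LPS 2. Without Vehicle 1, Vehicle 2, LPS 1 or LPS 2, 2 fell.

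Osbp2, an oxysterol-binding protein of the family that moves lipids between membranes, measured 3.56, 4.52 and 4.71 CPM in Vehicle 1, 2 and 3 and 145, 153 and 125 CPM in LPS 1, 2 and 3. All LPS libraries lay far above all Vehicle libraries, and the log2 fold change was 5.06 ± 0.15 (SE; edgeR adjusted p = 6.35e-07). Its relative Osbpl2 rose from 66.7 ± 1.36 to 115 ± 3.0 CPM (SD, n = 3; 0.78 ± 0.08, edgeR adjusted p = 0.00037). Insig1, which binds 25-hydroxycholesterol and holds back cholesterol synthesis, fell from 119 ± 8.66 to 78.4 ± 9.20 CPM (-0.60 ± 0.11, edgeR adjusted p = 0.0058). Nr1h3, the nuclear receptor LXR-alpha that oxysterols activate, fell from 6.34 ± 0.21 to 4.0 ± 0.12 CPM (-0.66 ± 0.18, edgeR adjusted p = 0.0296). That call was lost with the replicate number as a block (edgeR adjusted p = 0.055) and without Vehicle 1, 2 or 3 or LPS 1 or 2, where edgeR's adjusted p reached 0.0875. The most abundant gene of the list, the lysosomal cholesterol carrier Npc2, stood at 881 ± 29.4 CPM in Vehicle and 1124 ± 162 CPM with LPS and was not called (0.35 ± 0.11, edgeR adjusted p = 0.0547).

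Among the signalling partners of a Gi-coupled receptor, the alpha subunit gene Gnai2 fell. Of 21 genes for Gi-class G protein subunits, receptor kinases and arrestins, 18 were tested, of which 1 rose, 3 fell and 14 were not called, against 12.7% higher and 10.9% lower over all genes. There were 9 whose groups did not overlap, against 40.8% over all genes, and the median log2 fold change was -0.05. Gnai2, the chief Gi alpha subunit of leukocytes, fell from 364 ± 15.7 to 269 ± 16.1 CPM (SD, n = 3; -0.44 ± 0.08 SE, edgeR adjusted p = 0.00668) and was called under all 16 alternatives. The most abundant beta subunit gene, Gnb1, stood at 364 ± 11.8 and 367 ± 32.2 CPM and was not called (0.01 ± 0.09, edgeR adjusted p = 0.954).

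The calls among the gamma subunits, which anchor the beta-gamma complex to the membrane, were near the threshold. Gng12 fell by 0.39 on the log2 scale (edgeR adjusted p = 0.0151), a call lost without Vehicle 2, Vehicle 3 or LPS 2 (p up to 0.0696). Gng10 fell by 0.53 on the log2 scale (edgeR adjusted p = 0.0382), a call lost without Vehicle 1, 2 or 3 or LPS 1 (p up to 0.125). Gng5 rose by 0.36 on the log2 scale (edgeR adjusted p = 0.0472), a call lost in 12 of 16 alternatives (p up to 0.162), among them those without Vehicle 1, 2 or 3 or LPS 1 or 2. Without Vehicle 2 or without Vehicle 3, 1 gene of the list fell.

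Receptors for other lipid ligands also moved both ways. Of 31 listed, 20 were tested and 4 were at 0 in all libraries. Of those tested, 7 rose, 4 fell and 9 were not called, against 12.7% higher and 10.9% lower over all genes. The 7 include Gpr18 and Ltb4r1, which passed the filter only through the LPS libraries, where they are high. Their calls and their non-overlapping groups therefore support nothing, and the 7 is not read against the share over all genes. There were 14 whose groups did not overlap, against 40.8% over all genes, and the median log2 fold change was 0.14. Without Vehicle 2, 2 of them fell.

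S1pr1, the sphingosine 1-phosphate receptor that directs lymphocytes out of lymphoid tissue, measured 5.29, 4.76 and 5.68 CPM in Vehicle 1, 2 and 3 and 0.661, 0.947 and 0.534 CPM in LPS 1, 2 and 3. Every LPS library lay below every Vehicle library, and the log2 fold change was -2.86 ± 0.29 (SE; edgeR adjusted p = 0.00035). Cysltr1, a receptor for cysteinyl leukotrienes, fell from 7.80 ± 0.29 to 2.77 ± 1.77 CPM (SD, n = 3; -1.51 ± 0.35, edgeR adjusted p = 0.0164). Leaving out Vehicle 1, Vehicle 2 or LPS 1 each ended that call, with edgeR's adjusted p reaching 0.0594. Ltb4r1, the high-affinity receptor for leukotriene B4, measured 0.165, 0.349 and 0.169 CPM in Vehicle 1, 2 and 3 (10, 17 and 8 counts) and 3.52, 2.79 and 2.87 CPM in LPS 1, 2 and 3. Its Vehicle 1 and Vehicle 3 values were under the floor of 3 steps, so no fold or test is given. The most abundant receptor of the list, Gpr132, stood at 76.2 ± 1.13 CPM in Vehicle and 62.0 ± 5.22 CPM with LPS, just outside the threshold (-0.30 ± 0.10, edgeR adjusted p = 0.0563). It was called under 7 of 16 alternatives.

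**Figure D4:**
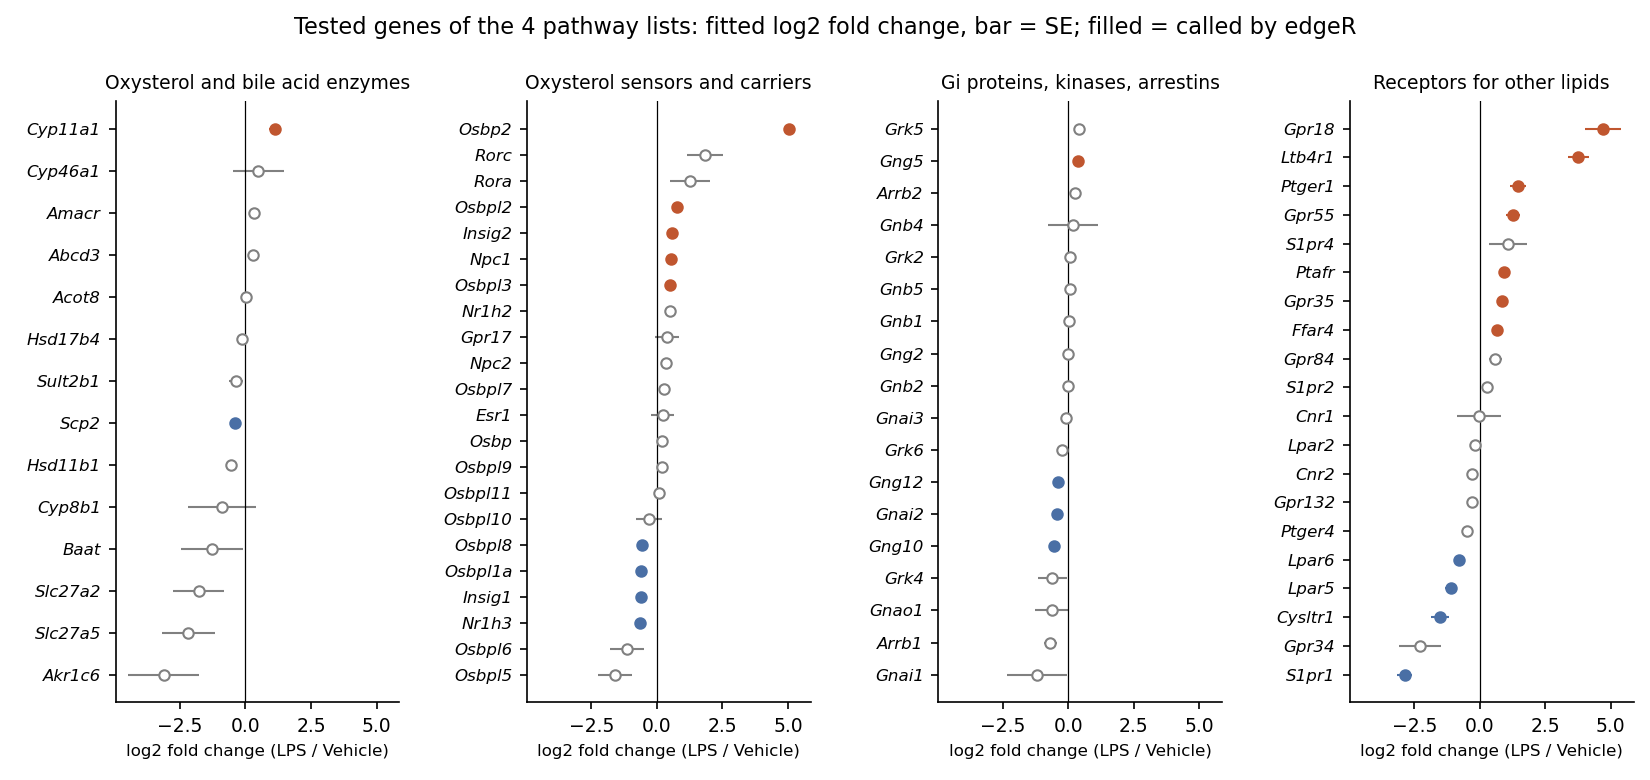
Fitted log2 fold change of LPS over Vehicle for each tested gene of 4 lists (oxysterol and bile acid enzymes, oxysterol sensors and carriers, Gi proteins with kinases and arrestins, receptors for other lipids), with SE as horizontal bars, n = 3 libraries per group. Filled points were called by edgeR (orange higher, blue lower), and open points were not. Osbp2 lies farthest right at 5.06 and S1pr1 is the lowest called receptor at -2.86. Fitted values of genes near 0 in a group, such as Gpr18, depend on edgeR's default prior count, not the 2 used for log2 CPM. Gpr18 and Ltb4r1 passed the filter only through the LPS libraries, so their filled points support nothing.

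The genes whose pattern over the 6 libraries was most like that of Gpr183 were found among 10533 genes with a mean of at least 5 CPM. The measure was the root mean squared difference of log2 CPM, each gene centred on its own mean. The closest were Dmpk, a serine/threonine kinase, at 0.35, Hdac9, a histone deacetylase, at 0.41, and Frmd4b, a FERM-domain protein, at 0.51. The ATP-binding cassette transporters Abca9 at 0.55 and Abcd2 at 0.62 came next, Abcd2 being a peroxisomal importer of very long-chain fatty acids. Dmpk stood at 18.3 ± 4.20 CPM in Vehicle and 2.22 ± 0.34 CPM with LPS (SD, n = 3), and Abcd2 at 25.4 ± 2.79 and 5.71 ± 1.14 CPM. Gpr183 was chosen for its difference between the groups, so this likeness is a description with no test. Ch25h, at 0 throughout, has no pattern to match.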

How the data were processed

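Messenger RNA of 3 Vehicle and 3 LPS libraries of BV2 cells was enriched with oligo(dT) and run on an Illumina NovaSeq, per the labels' protocols. The authors deposited estimated counts for each gene, all whole numbers whose low values (under 40) pile up at a spacing of 3.70 to 3.83 counts. The submitters' processing notes name Bowtie2 2.2.8, HISAT2, StringTie 1.3.1 and DESeq2 without a role. The genome build is not given in the sources used here. All columns were mapped by name (0 left over). Results for some genes are not reported here.

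Genes were filtered with filterByExpr (minimum count 10, minimum total 15), scaled by TMM and tested with edgeR 4.0.16 in R 4.3.3 (quasi-likelihood F-test, two-sided, robust). A call is an adjusted p (Benjamini-Hochberg, 16371 genes) under 0.05. Of 55401 identifiers, 55141 matched a symbol. The procedure was tested on simulated data. Alternatives used DESeq2 1.42.0, limma 3.58.1 voom, other scalings and filters, a replicate block, division by the count step and leaving out each library. Gene structure and lengths came from GENCODE's mouse annotation, and the prior count for log2 CPM was 2.

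The genes and lists were chosen with earlier results of these data known. The text names the receptor and enzymes, Ubac2, Gpr18, Lipa, up to 4 called genes of each list with the largest changes, the most abundant gene of each list, and the 5 genes most like Gpr183. The liver list, the motifs and coding length were chosen after seeing the data, and so were other genes where stated. The coding length of the proteins was replaced by that of the annotation.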

Additional observations from a re-analysis of the deposited data

How the results depend on the processing

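The log2 fold change of Gpr183 kept its direction and call under all 16 alternatives. Since Gpr183 was chosen on this contrast, the kept call supports nothing. Its log2 fold change was -3.34 to -3.25 with other scalings, filters and tests and -3.64 to -3.03 with 1 library left out. For Hsd3b7 the corresponding ranges were 0.24 to 0.34 and 0.18 to 0.49, and for Cyp27a1 0.18 to 0.27 and 0.19 to 0.31. Genes called ran from 3540 to 4494 with other settings and from 2344 (without Vehicle 2) to 4535 (without LPS 3). With total counts only, the median over all tested genes was -0.10, and 3 sensors and carriers were higher. In the list of Gi subunits, kinases and arrestins the number higher was 0 with the size factors of DESeq2, upper quartile, total counts only, no filter, the stricter filter, edgeR as before version 4 and the replicate block (1 to 3 genes at an unadjusted p under 0.05), and 1 with DESeq2, limma voom and division by the count step. Leaving out each library gave 1 to 2 enzymes higher and 1 to 4 lower, 3 to 6 sensors and carriers higher and 2 to 4 lower, 0 to 1 Gi-list genes higher and 1 to 3 lower, and 5 to 7 lipid receptors higher and 2 to 6 lower. The 4 enzymes lower, found without LPS 3, include Slc27a2 and Slc27a5, whose calls support nothing. The causes were not tested. For 39 named genes outside the receptor and its enzymes, the alternatives gave 617 values, of which 554 kept direction and side of the threshold, 34 lost the call and 16 gained it. The other 13, uncalled values of Gnb1, Cd68, Tmem119 and Itgam, changed sign. The alternatives for marker, liver, 1-exon and Gpr183-like genes were added after seeing the data. The alternatives were not run for Ch25h, at 0 throughout, or for Cyp7b1, which did not pass the filter and has no main value. Depth limits both: values under 3 steps are not told apart from 0.

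The labels do not state that the replicate numbers pair the libraries. Same-numbered libraries deviated together at r = 0.0734, 0.0453 and 0.0581, none over 0.1, and each correlated best with its own number. Correlations this weak cannot decide whether the libraries were paired. With the replicate block 3816 genes were called, and the log2 fold changes were -3.27 for Gpr183, 0.32 for Hsd3b7 and 0.27 for Cyp27a1.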
